A study of Mus musculus with 4 samples.

Results

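The cadherins, claudins and epithelial adhesion genes examined here are 10 genes: *Cdh1*, *Cdh2*, *Cdh3*, *Epcam*, *Cldn3*, *Cldn4*, *Cldn6*, *Cldn7*, *Tjp1* and *Ocln*. They were found by an exact match of the symbol joined to the gene identifier, and each symbol matched 1 of the 53379 genes in the files. RNA came from DKO741, a mouse embryonic stem cell line in which both alleles of the telomerase RNA gene *Terc* were disrupted in E14 cells, so that the cells of every library lack telomerase RNA. Pre-ALT cells at population doubling 100 (PD100) were compared with post-ALT cells at population doubling 800 (PD800), where ALT stands for alternative lengthening of telomeres, with 2 libraries of each. The line is 1 clone, so doublings, selection of survivors and ALT activation cannot be told apart, and no library of *Terc*+/+ cells was analysed here. The titles count doublings, while the treatment field of the labels speaks of passages at the same numbers. Stocks were kept on mouse embryonic fibroblast feeders, while feeder-free cells were used for RNA. The paper calls the libraries biological duplicates and the labels do not say more, so p-values measure the spread between these libraries.

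Cadherins are calcium-dependent adhesion molecules, and the cytoplasmic tails of classical cadherins of the adherens junction are tied to actin through catenins. Claudins and occludin are membrane proteins that pass through the membrane several times and form the tight junction, where they are anchored by the zonula occludens scaffolds. Embryonic stem cells grow as compact colonies held together by E-cadherin, the product of *Cdh1*, and they also carry EpCAM, a homophilic surface glycoprotein that binds claudin-7.

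All 10 genes had enough counts for a test. *Epcam*, *Cldn3*, *Cldn6*, *Cldn7* and *Ocln* fell in PD800 cells, by 2.89-fold for *Ocln* to 10.05-fold for *Cldn7*, and none of the 10 genes rose by edgeR or by DESeq2 (1 of the 10, *Cdh3*, was higher at an unadjusted p under 0.05). A call needed a Benjamini-Hochberg adjusted p below 0.01 by edgeR, a negative binomial model fitted across all genes, together with a change of more than 2-fold, and rose and fell are used here for called genes. Thus 5 of the 10 genes were called lower, while of all 19148 tested genes 8.81% were called lower and 6.28% higher. These shares are also the background for the counts of calls in the gene lists further on. The median log2 fold change of the 10 genes was -1.26, against 0.01 for all tested genes. *Cdh1* and *Cldn4* passed the adjusted p with changes under 2-fold, and *Cdh2*, *Cdh3* and *Tjp1* did not pass it. At an adjusted p under 0.01 with any fold, 7 of the 10 genes were lower, against 15.4% of all tested genes. *Cdh1*, 1 of the 7, did not pass it without PD800 replicate 1 or 2 (edgeR adjusted p = 0.0293 and 0.0371), while *Cdh2* and *Tjp1* passed it without PD100 replicate 2 (edgeR adjusted p = 0.000171 and 0.00191). *Cdh3* passed it as higher without PD100 replicate 1 (log2 fold change 0.29, edgeR adjusted p = 0.00286), and *Cdh2* as lower with no filter on low counts (edgeR adjusted p = 0.000374). Both PD800 libraries lay below both PD100 libraries for 9 of the 10 genes (background 36.3%), and above them for *Cdh3* (background 37.4%). Together the 10 genes summed to 984 and 960 CPM (counts scaled to library size with TMM factors) in PD100 and to 600 and 584 CPM in PD800. Their share of the unscaled counts was 0.103% and 0.0987% against 0.0575% and 0.0562%. The mitochondrial share of the counts was 15.4% and 11.01% in PD100 and higher in both PD800 libraries, at 17.7% and 16.0%, and the 5 calls held in a fit on protein-coding nuclear genes only, chosen after seeing the data.

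**Figure D1:**
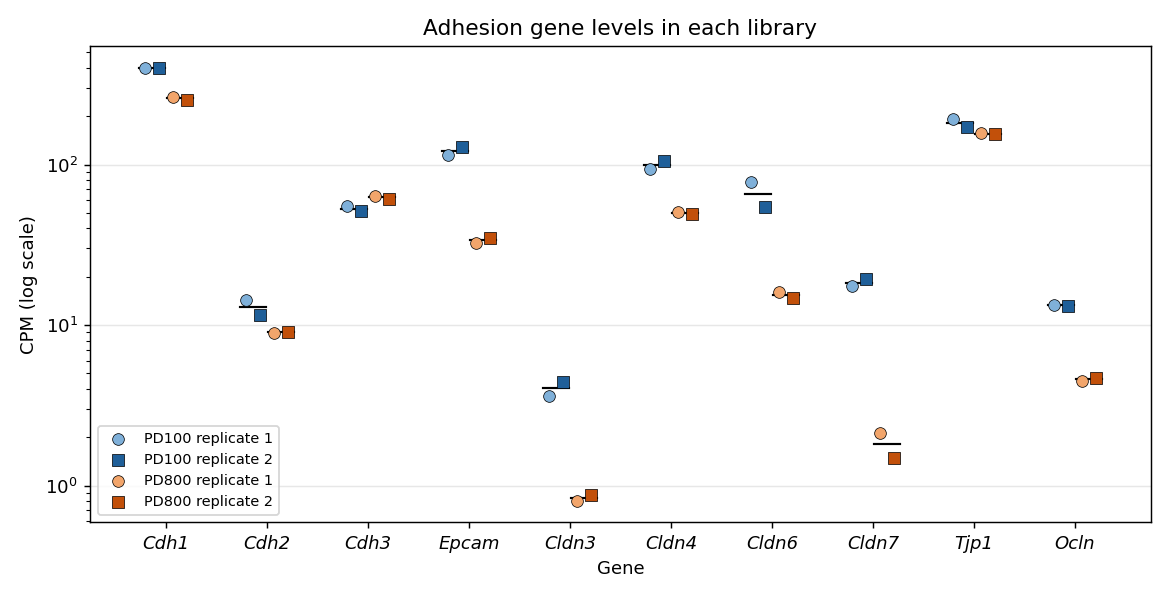
CPM of the 10 adhesion genes on a log axis, with a point for each of the 2 PD100 (blue) and 2 PD800 (orange) libraries and a bar at each group mean. The groups lie farthest apart for *Cldn7* (18.4 against 1.82 CPM on average) and close together for *Cdh3* and *Tjp1*.

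The libraries summed to between 32454120 and 38492150 expected counts, the read pairs that RSEM assigned to genes. Libraries of the same group correlated at r = 0.991 (PD100) and 0.996 (PD800) in log2 CPM across genes. A floor of 3 counts lay between 0.0743 and 0.0934 CPM and covers counting error only, and each of the 10 genes was above it in every library. For *Terc* itself, 1 read pair was counted in PD100 replicate 1 and none in the other libraries. Markers of pluripotent stem cells were present in both groups, and *Pou5f1*, which encodes OCT4, had a mean CPM of 485 ± 25.9 (SD, n = 2) at PD100 and 618 ± 23.4 (SD, n = 2) at PD800. In CPM, all 8 listed markers were higher in both PD800 libraries than in either PD100 library (background 37.4%). In TPM the groups overlapped for *Utf1* (39.2 and 32.8 at PD100 against 40.1 and 38.6 at PD800) and *Dppa5a* (682 and 1068 against 1051 and 1156). *Nanog* and *Esrrb*, factors of the naive pluripotent state, rose at log2 fold changes of 2.32 and 2.06, and the other 6 were not called. None of the 8 fell by edgeR or DESeq2 (0 were lower at an unadjusted p under 0.05). Markers of other cell types moved with the comparison. For extraembryonic endoderm, 8 of the 9 tested markers fell, none rose, and the sum over the 11 listed genes was 186 and 158 CPM in PD100 libraries but 13.2 and 13.3 CPM in PD800 libraries. *Gata6*, an endoderm transcription factor, was at 15.8 and 13.6 CPM against 1.17 and 1.15 CPM, while the late endoderm products *Afp* and *Ttr* had 3 and 4 counts each in PD100 libraries, with 0 in PD800 libraries. For trophectoderm, 5 of 8 tested markers fell and *Eomes* rose, and the sum over 9 genes went from 733 and 806 CPM to 71.3 and 70.4 CPM. At PD100 most of that sum was *Krt8* and *Krt18*, keratins of simple epithelia at large, while at PD800 *Tfap2c*, named after its values were seen, was the most abundant of the list at 30.2 and 29.8 CPM. The call of *Eomes* was lost by limma on log2(TPM + 1), and that of *Cdx2*, also named after its values were seen, by DESeq2, by limma on TPM values and without PD100 replicate 1 or either PD800 library. *Krt8* averaged 400 ± 18.3 CPM (SD, n = 2) against 19.6 ± 0.674 CPM (SD, n = 2). For feeder fibroblasts, 4 of 7 tested markers fell, and the sum over 9 genes was 49.7 and 71.5 CPM against 14.6 and 15.6 CPM, with *Lum* at 0 counts in 3 libraries and 1 in the other. Limma called 2 of the 7 on log2(TPM + 1) and 3 on log2(TPM + 0.1), where *Thy1* and, on the former, *Col3a1* lost their calls. Among the untested and tested markers alike, the sums of all 3 lists were lower in both PD800 libraries than in either PD100 library. The part of these cell types in the changes of the adhesion genes was not tested. In bulk RNA, fewer cells of a type and less RNA per cell cannot be told apart.

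*Cdh1* encodes E-cadherin, the main adhesion molecule of epithelia and of embryonic stem cell colonies. Its CPM was 400 and 402 at PD100, and 264 and 253 at PD800. The groups did not overlap, and the replicates of each lay close together. On the log2 scale its change was -0.63 (SE 0.08, edgeR adjusted p = 0.00133), which is 1.55-fold lower and short of the 2-fold threshold. *Cdh2* encodes N-cadherin, typical of neural and mesenchymal cells. It was low in every library, at 14.4 and 11.6 CPM in PD100 and 8.99 and 9.09 CPM in PD800. Its log2 fold change of -0.52 (95% confidence interval -0.84 to -0.21) did not pass the test (edgeR adjusted p = 0.0195). *Cdh3* encodes P-cadherin, first described in placenta. It was at 55.1 and 51.0 CPM in PD100 and 63.4 and 61.4 CPM in PD800. Its log2 fold change of 0.23 (95% confidence interval 0.04 to 0.43) did not pass the test either (edgeR adjusted p = 0.0536). On the TPM scale, which accounts for gene length and on which the median of all genes lay lower, *Cdh3* was level between the groups, at 10.1 and 8.48 TPM against 9.67 and 8.84 TPM.

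Per length, *Cdh1* was the most abundant of the 3 cadherins in every library. The ratio of *Cdh1* to *Cdh2* TPM was 24.9 and 33.4 at PD100, and 27.5 and 26.3 at PD800, so that the ratios of the groups overlapped. The ratio of *Cdh1* to *Cdh3* TPM was 7.27 and 7.91 in PD100 and 4.19 and 4.13 in PD800. These ratios did not overlap, and the share of *Cdh3* in the TPM of the 3 genes was 11.7% and 10.9% against 18.7% and 18.9%. The smallest p of a two-sided exact permutation test of 2 libraries against 2 is 0.33, and the ratios are therefore descriptions. *Cdh3* and *Cdh1* lie near each other on chromosome 8 (GRCm38, the assembly also called mm10), on the plus strand from 106510891 to 106557297 and from 106603351 to 106670246, with 46.1 kb and the tested gene *Gm10073* (log2 fold change 0.20) between them.

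Of 16 other cadherin genes listed, 10 had enough counts for a test. Of these, 4 fell and none rose (1 was higher at an unadjusted p under 0.05, and none by DESeq2). All of those that fell were scarce. *Cdh6* averaged 6.48 ± 0.397 CPM (SD, n = 2) at PD100 against 0.943 ± 0.0747 CPM (SD, n = 2) at PD800, and its log2 fold change was -2.78 (edgeR adjusted p = 0.000147). *Cdh10* and *Cdh13* had log2 fold changes of -2.35 and -1.90. The remaining call was *Cdh5*, the endothelial cadherin, under 1 CPM on average and named after its values were seen, which was not called when either PD800 library was left out. By limma on log2(TPM + 1), where low genes are compressed, none of these 4 cadherins was called.

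The partners of cadherins at the adherens junction did not move as 1 group. Of 15 listed genes, 4 fell, none rose (4 were higher at an unadjusted p under 0.05, and none was called higher by DESeq2), and the median log2 fold change was -0.29. None of the 5 listed catenins passed both thresholds. *Ctnnb1*, which encodes β-catenin, was at 639 and 679 CPM in PD100 and 963 and 990 CPM in PD800, a log2 fold change of 0.57 (SE 0.08, edgeR adjusted p = 0.00293), under 2-fold. *Ctnna1*, encoding α-catenin, which ties β-catenin to actin, had a log2 fold change of 0.35 (edgeR adjusted p = 0.0166) and *Ctnnd1*, encoding p120-catenin, of -0.055 (edgeR adjusted p = 0.608). *Jup*, which encodes plakoglobin or γ-catenin and was named after its values were seen, was at 136 and 110 CPM against 77.7 and 71.6 CPM, a log2 fold change of -0.72 (edgeR adjusted p = 0.00436), lower but under 2-fold. The genes that fell were *Nectin4*, *Vcl*, *Ajuba* and *Afdn*. *Vcl* encodes vinculin, which couples junctions and focal adhesions to actin. It was at 157 and 177 CPM in PD100 and at 44.0 and 46.6 CPM in PD800, a log2 fold change of -1.88 (SE 0.09, edgeR adjusted p = 7.72e-05). *Nectin4*, an immunoglobulin-type adhesion molecule, was at 8.27 and 10.8 CPM against 1.86 and 1.52 CPM. *Afdn*, which encodes the nectin-binding scaffold afadin, had a log2 fold change of -1.09, and *Ajuba*, a LIM-domain protein of junctions, of -1.28.

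*Epcam* had 115 and 129 CPM at PD100, and 32.6 and 34.8 CPM at PD800. The 4 values formed separate pairs, and the log2 fold change was -1.85 (SE 0.09, edgeR adjusted p = 7.67e-05), 3.62-fold lower. In TPM, *Epcam* was at 47.8 in both PD100 libraries and at 11.2 and 11.3 in PD800. The ratio of *Cdh1* to *Epcam* TPM was 1.54 and 1.40 in PD100 and 3.62 and 3.24 in PD800, without overlap. Of 7 listed relatives and partners of EpCAM, 3 fell and none rose (2 were higher at an unadjusted p under 0.05, and none was called higher by DESeq2). *Cd44*, the hyaluronan receptor, and *Prss8*, the membrane-anchored serine protease prostasin, had log2 fold changes of -2.65 and -2.10. *Spint1*, an inhibitor of membrane serine proteases such as matriptase, had a log2 fold change of 0.43 (edgeR adjusted p = 0.00839), under 2-fold.

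The bases before the transcription starts are shown for *Epcam* and *Cldn4*, because these genes had a match to the E-box that SNAI and ZEB repressors bind, as had *Cldn6*, *Cldn7* and *Ocln*, and because levels of those factors are given further on. The sequences are from RefSeq on GRCm38.p6, 250 bases up to the base before the start, 5′ to 3′ on the gene's strand. Capitals mark CACCTG on either strand (CAGGTG read from the other) and ACCGGT, the palindromic core of the grainyhead-like site. The *Epcam* window is chr17:87635729-87635978 on the plus strand, and the *Cldn4* window is chr5:134946935-134947184 on the minus strand.
Epcam: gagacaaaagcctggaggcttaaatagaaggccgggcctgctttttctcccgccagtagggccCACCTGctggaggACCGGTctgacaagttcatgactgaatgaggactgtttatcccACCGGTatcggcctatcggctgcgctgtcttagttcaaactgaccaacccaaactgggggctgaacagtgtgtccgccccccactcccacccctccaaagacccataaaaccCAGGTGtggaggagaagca
Cldn4: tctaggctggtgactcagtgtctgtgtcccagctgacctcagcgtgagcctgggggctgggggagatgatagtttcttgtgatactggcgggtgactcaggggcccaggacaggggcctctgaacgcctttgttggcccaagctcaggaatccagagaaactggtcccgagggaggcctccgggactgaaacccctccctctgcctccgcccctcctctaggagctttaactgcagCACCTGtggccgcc
For *Cldn6*, *Cldn7* and *Ocln*, whose windows overlap annotated exons, 30 bases around each E-box are given, at chr17:23679260-23679289 (plus strand), chr11:69965312-69965341 and chr11:69965352-69965381 (plus strand), and chr13:100552694-100552723 and chr13:100552549-100552578 (minus strand).
Cldn6: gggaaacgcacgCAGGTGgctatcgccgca
Cldn7, 97 bases before its inner start: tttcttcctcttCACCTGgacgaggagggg
Cldn7, 57 bases before its inner start: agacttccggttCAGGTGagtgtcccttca
Ocln, 213 bases before its inner start: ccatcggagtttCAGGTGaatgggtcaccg
Ocln, 68 bases before its inner start: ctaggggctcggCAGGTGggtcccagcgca
RefSeq windows were at hand for 7 of the 10 genes, 9 windows in all, as *Cldn7* and *Ocln* have a pair of starts each. CACCTG was in 5 of the 9 windows, against 17.2% of all 32851 windows of this length. The *Epcam* window held it 187 and 19 bases before the start, and *Cldn4* held it 14 bases before the start. ACCGGT was in 1 of the 9 windows, that of *Epcam*, at 174 and 131 bases before the start, against 1.86% of all windows. AACNNGTT, a looser form of the grainyhead-like site, was in none of the 9, against 3.64%. The windows of *Cldn3* and *Tjp1* held none of these letters, nor did those of the outer starts of *Cldn7* and *Ocln*. For *Cldn7* and *Ocln* the match thus depends on the start, and which start the cells used was not determined. A match is a description of the sequence and does not show that a factor was bound.

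Of the 4 claudins, *Cldn3*, *Cldn6* and *Cldn7* fell and *Cldn4* stopped just short of the fold threshold. *Cldn7*, the claudin that pairs with EpCAM on the basolateral membrane, had 17.6 and 19.2 CPM at PD100, and 2.14 and 1.49 CPM at PD800. Both PD800 values were far below both PD100 values, with a log2 fold change of -3.33 (SE 0.17, edgeR adjusted p = 8.60e-05), 10.05-fold lower. *Cldn6*, a claudin typical of embryonic epithelia and pluripotent cells, was at 77.6 and 54.3 CPM in PD100 and at 16.1 and 14.8 CPM in PD800. The PD100 replicates of *Cldn6* lay well apart, but both were above both PD800 libraries, and the log2 fold change was -2.10 (SE 0.18, edgeR adjusted p = 0.000390). *Cldn3*, a barrier-forming claudin of many epithelia, was scarce, with 147 and 148 counts at PD100 against 29 and 28 counts at PD800. This was a level of 3.64 and 4.43 CPM against 0.807 and 0.871 CPM, and a log2 fold change of -2.26 (SE 0.22, edgeR adjusted p = 0.000598). On the log2(TPM + 1) scale, which understates changes of low genes, limma gave -1.33 for *Cldn3* and -2.71 for *Cldn7*. The 3′ end of *Cldn3* overlaps that of *Wbscr25* on the opposite strand by 40 bases, where reads of the pair cannot be told apart unless strand was used in counting. The counts of *Wbscr25* were 8 and 2 at PD100, and 1 in both libraries of PD800. *Cldn4*, a further barrier-forming claudin, was at 93.6 and 105 CPM in PD100 and at 50.9 and 49.5 CPM in PD800. Its groups did not overlap (edgeR adjusted p = 0.000442), but its log2 fold change of -0.99 (95% confidence interval -1.20 to -0.77), 1.98-fold, fell just short of 2-fold. It passed both thresholds by limma on TPM values and when PD100 replicate 1 or PD800 replicate 1 was left out (log2 fold change -1.07 and -1.01), and not when PD100 replicate 2 or PD800 replicate 2 was left out (-0.92 and -0.97).

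Summed over the 33 claudin genes of the files, the level was 121.2 and 101.2 TPM in PD100 and 38.9 and 34.5 TPM in PD800. *Cldn3*, *Cldn4*, *Cldn6* and *Cldn7* held 88.2% and 88.6% of the sum in PD100 and 76.4% and 76.7% in PD800. *Cldn4* had 36.4% and 43.9% of the claudin TPM in PD100 and 50.9% and 52.8% in PD800, while the share of *Cldn7* was 12.5% and 14.1% against 4.57% and 3.13%. *Cldn6* had 37.2% and 27.8% in PD100 and 19.8% and 19.4% in PD800. In PD100 replicate 1 *Cldn6* was as abundant as *Cldn4* (a ratio of *Cldn4* to *Cldn6* TPM of 0.979), in PD100 replicate 2 the ratio was 1.58, and in the PD800 libraries it was 2.57 and 2.72. The share of *Cldn12*, a claudin without the usual PDZ-binding end, was 9.002% and 8.71% in PD100 and 18.4% and 17.9% in PD800. Its own level of 40.6 and 33.8 CPM against 30.4 and 29.7 CPM did not pass the test (log2 fold change -0.31, edgeR adjusted p = 0.0561), and it was named after its values were seen.

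**Figure D2:**
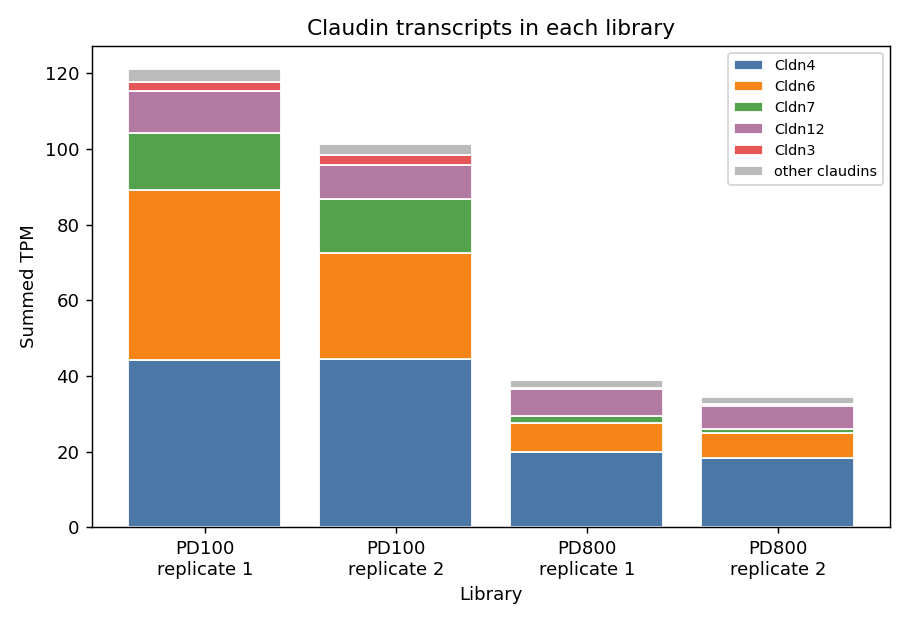
Summed TPM of claudin genes in each of the 4 libraries, stacked by gene, with the claudins not named in the legend pooled in grey. The stack is 121.2 and 101.2 TPM high in PD100 and 38.9 and 34.5 TPM high in PD800, and *Cldn4* is the largest part of the PD800 stacks.

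Of 20 other claudins listed, 19 were in the files and 8 had enough counts for a test. Of these, *Cldn1* and *Cldn23* were called lower, and none was called higher by edgeR or DESeq2 (1 was higher at an unadjusted p under 0.05). Both are scarce and were named after their values were seen. *Cldn1* had 47 and 24 counts at PD100 against 3 and 1 at PD800, and *Cldn23* had 11 and 10 counts against 1 in each PD800 library. Neither was called by limma on log2(TPM + 1), and the call of *Cldn23* was also lost in DESeq2 and when any library was left out. *Cldn9* lies tail to tail with *Cldn6* on chromosome 17, 0.137 kb away. It was at 1.81 and 1.71 CPM in PD100 and 0.751 and 0.934 CPM in PD800, and its log2 fold change of -1.06 did not pass the test (edgeR adjusted p = 0.0127).

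*Ocln* encodes occludin, a tight junction protein that passes the membrane several times. It was at 13.4 and 13.2 CPM in PD100 and at 4.51 and 4.67 CPM in PD800, with replicates much closer to each other than the groups. The log2 fold change was -1.53 (SE 0.10, edgeR adjusted p = 0.000171), 2.89-fold lower. *Tjp1* encodes ZO-1, the scaffold that anchors claudins and occludin to actin. It was at 193 and 171 CPM in PD100 and at 157 and 154 CPM in PD800. The groups did not overlap, but the log2 fold change of -0.23 (95% confidence interval -0.44 to -0.02) did not pass the test (edgeR adjusted p = 0.0750). The ratio of *Tjp1* to *Ocln* TPM was 6.55 and 4.90 in PD100 and 16.2 and 13.8 in PD800.

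Other tight junction genes moved in both directions. Of 16 scaffolds and membrane proteins, 4 fell and 3 rose, and the median log2 fold change was 0.05 (-0.26 on the log2(TPM + 1) scale and -0.31 on the log2(TPM + 0.1) scale). *Marveld2*, which encodes tricellulin, a relative of occludin at junctions of 3 cells, was at 7.04 and 7.16 CPM in PD100 and at 2.87 and 2.77 CPM in PD800, a log2 fold change of -1.33 (edgeR adjusted p = 0.000692). *Cgn*, encoding the ZO-1-binding protein cingulin, was at 66.1 and 80.7 CPM against 26.8 and 31.3 CPM, while its paralogue *Cgnl1*, encoding paracingulin, was at 21.3 and 21.8 CPM against 61.4 and 64.0 CPM. These were log2 fold changes of -1.34 and 1.54 (edgeR adjusted p = 0.000610 and 7.94e-05). *Ildr1*, encoding an angulin that recruits tricellulin, rose at a log2 fold change of 1.83, while *Lsr*, which encodes a further angulin, fell at -1.09. *Jam2*, a junctional adhesion molecule, was the third gene that rose (log2 fold change 1.40), though not by limma on TPM values (log2 fold change at least 0.64, adjusted p at most 0.0164), and *Marveld3*, a further relative of occludin, was the remaining gene that fell (log2 fold change -1.05), a call lost by limma on TPM values and when either PD800 library was left out. *F11r*, which encodes JAM-A, was lower at a log2 fold change of -0.67 (edgeR adjusted p = 0.00142), under 2-fold. Among 16 apical polarity genes, 2 fell and none rose (4 were higher at an unadjusted p under 0.05, and none was called higher by DESeq2). These counts were near the shares over all tested genes, 8.81% lower and 6.28% higher, and the median log2 fold change was -0.09. *Pard3*, a scaffold of the PAR complex, was at 68.3 and 72.9 CPM in PD100 and 19.9 and 22.1 CPM in PD800, and *Patj*, a scaffold of the Crumbs complex, had a log2 fold change of -1.62.

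**Figure D3:**
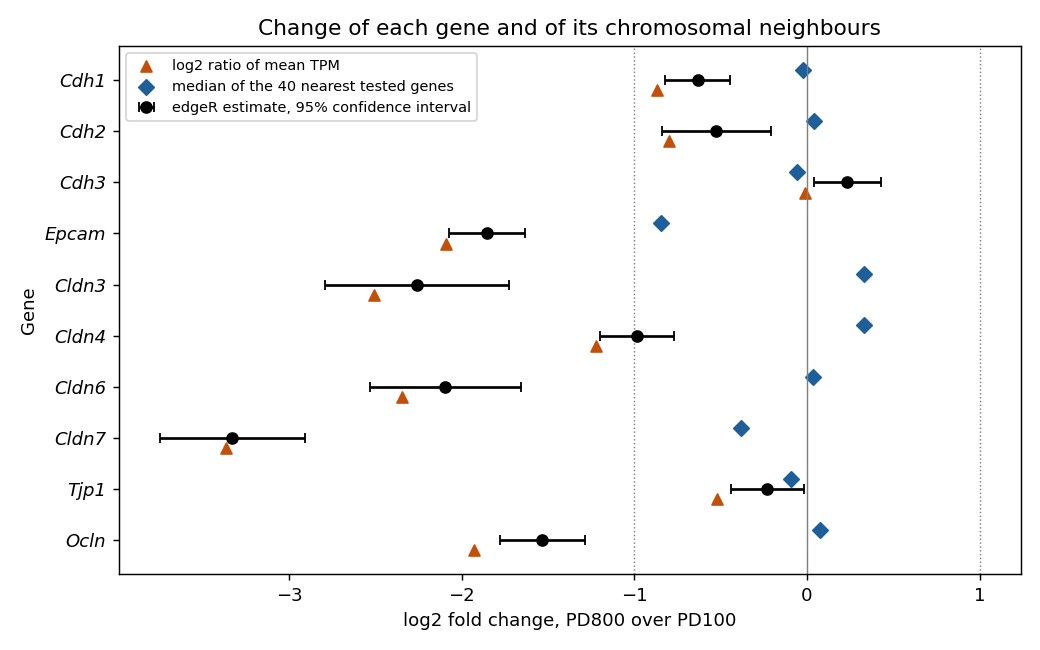
The log2 fold change of each adhesion gene by edgeR with its 95% confidence interval (black), the log2 ratio of the group means in TPM (orange) and the median log2 fold change of the 40 tested genes nearest on the chromosome (blue), with dotted lines at 2-fold. The TPM ratio lies below the edgeR estimate for all 10 genes, as for *Cdh1* (-0.87 against -0.63), and the blue median is farthest from 0 for *Epcam* (-0.84).

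Of 10 epithelial transcription and splicing factors, 4 fell and none rose (1 was higher at an unadjusted p under 0.05, and none was called higher by DESeq2). *Grhl2* encodes a grainyhead-like factor that binds enhancers of *Cdh1*, *Epcam* and claudin genes in epithelia. It was at 52.2 and 53.4 CPM in PD100 and at 4.92 and 4.23 CPM in PD800, a log2 fold change of -3.52 (SE 0.10, edgeR adjusted p = 3.11e-05). Its relative *Grhl3* was at 17.3 and 16.8 CPM against 34.5 and 33.3 CPM, a log2 fold change of 0.99 (edgeR adjusted p = 0.000302) that was just short of 2-fold. *Esrp1*, the epithelial splicing regulator, was at 32.8 and 32.3 CPM against 5.29 and 5.91 CPM, and its paralogue *Esrp2* had a log2 fold change of -1.06, a call lost by limma on log2(TPM + 1) and when PD100 replicate 1 or PD800 replicate 2 was left out. *Ovol1*, a zinc-finger factor that opposes mesenchymal fate, was scarce and had a log2 fold change of -3.37.

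Repressors of *Cdh1* and their relatives did not move together. Of 9 listed factors, 5 fell and 1 rose. The genes that fell were *Snai1*, *Snai3*, *Zeb2*, *Prrx1* and *Twist2*, the last named after its values were seen. *Zeb1*, a zinc-finger and homeodomain repressor, was the gene that rose, from 6.07 and 5.14 CPM in PD100 to 19.4 and 19.0 CPM in PD800, a log2 fold change of 1.77 (SE 0.11, edgeR adjusted p = 0.000147). Its relative *Zeb2* was at 7.48 and 6.11 CPM against 3.03 and 3.02 CPM, a log2 fold change of -1.17 (edgeR adjusted p = 0.00215). *Snai1*, the repressor Snail, was at 2.82 and 1.86 CPM against 0.417 and 0.467 CPM and *Snai3* at 7.70 and 6.38 CPM against 1.14 and 1.06 CPM. The calls of *Zeb2* and of *Prrx1* (log2 fold change -1.67) were lost by limma on TPM values and when either PD800 library was left out, and that of *Twist2* by limma on log2(TPM + 1) and without either PD800 library. Of 7 genes read as mesenchymal, 4 fell and none rose (1 was higher at an unadjusted p under 0.05, and none was called higher by DESeq2). *Tagln*, *Sparc*, *Acta2* and *Mmp2* had log2 fold changes of -3.36, -2.71, -2.36 and -1.56. *Vim*, which encodes vimentin, was at 156 and 168 CPM in PD100 and 215 and 228 CPM in PD800 (log2 fold change 0.45, edgeR adjusted p = 0.00635), under 2-fold.

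**Figure D4:**
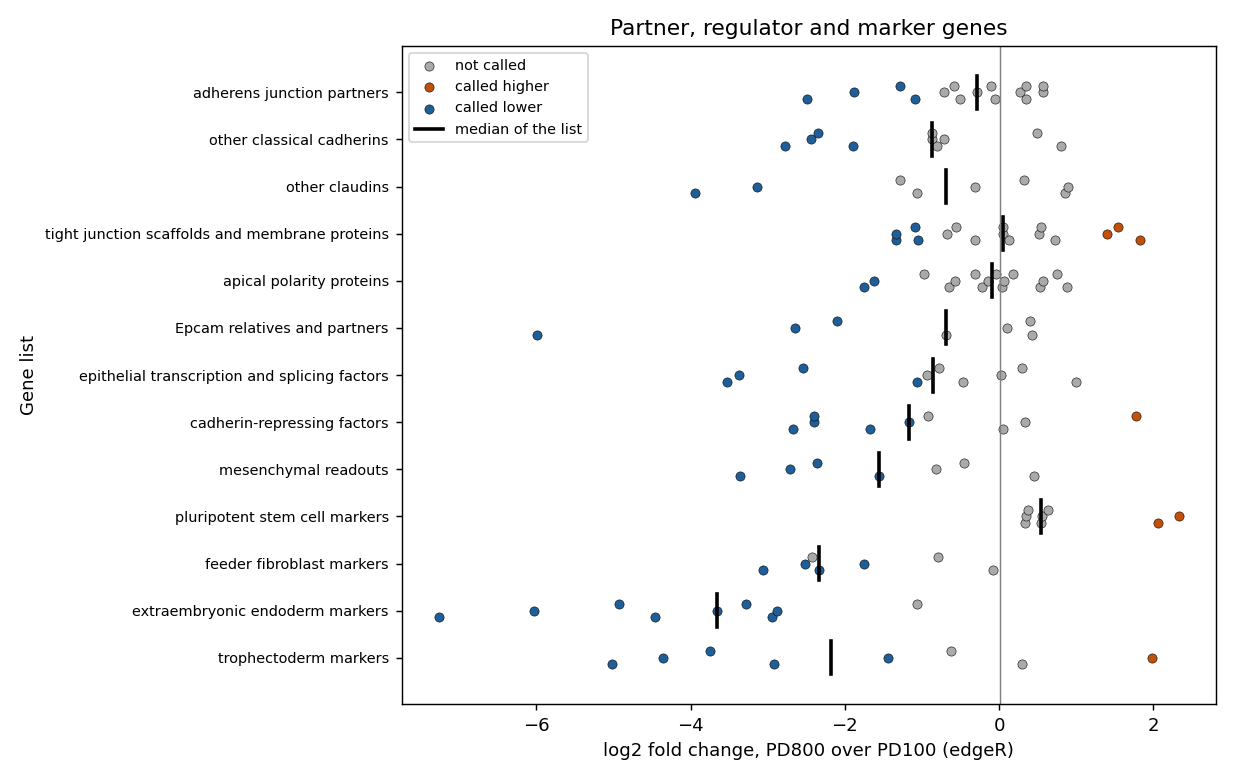
The log2 fold change by edgeR of every tested gene in each list of partners, regulators and cell type markers, coloured by its call, with a black bar at the median of the list and a grey line at the median of all tested genes (0.01). Endoderm markers lie farthest to the left (median -3.66), pluripotent stem cell markers lie to the right (median 0.55), and the tight junction list lies on both sides.

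By TPM, the order of the adhesion genes in PD100 cells was *Cdh1* (70.4 ± 4.68, SD, n = 2), *Epcam* (47.8), *Cldn4* (44.3 ± 0.240), *Cldn6* (36.6 ± 11.9), *Tjp1* (24.1 ± 1.71), *Cldn7* (14.7 ± 0.665), *Cdh3* (9.31 ± 1.17), *Ocln* (4.27 ± 0.573), *Cldn3* (2.70 ± 0.156) and *Cdh2* (2.49 ± 0.672). *Cldn6* overlapped *Cldn4*, and *Cdh2* overlapped *Cldn3*. In PD800 cells, *Cdh1* was again the most abundant at 38.5 ± 2.81 TPM (SD, n = 2), followed by *Cldn4* (19.0 ± 1.14), *Tjp1* (16.8 ± 0.820), *Epcam* (11.2 ± 0.0636), *Cdh3* (9.26 ± 0.587) and *Cldn6* (7.20 ± 0.714). *Cldn7* (1.43 ± 0.495), *Cdh2* (1.43 ± 0.0566), *Ocln* (1.12 ± 0.0707) and *Cldn3* (0.475 ± 0.00707) came last, and the values of *Cldn7* overlapped those of *Cdh2* and *Ocln*. All expected counts of the 10 genes were whole numbers, so the fractions that RSEM gives where reads are shared between genes were not seen. RSEM also estimates a gene length from the mix of transcripts. That length was the same in every library for *Cdh3*, *Epcam*, *Cldn3*, *Cldn4* and *Cldn6*. For *Cldn7* it was 1067 and 1097 bases in PD100 and 937 and 1001 bases in PD800, and for *Ocln* it was 2868 and 2131 bases against 2883 and 2596 bases, so that in *Ocln* the PD100 replicates differed more than the groups. For *Zeb1*, whose counts were whole in 1 library only, it was 3993 and 2970 bases in PD100 and 1799 and 2028 bases in PD800.

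The study describes copy number changes between the time points, so the genes around each adhesion gene were also read. The 40 tested genes nearest to *Epcam* on chromosome 17 (87635979 to 87651129, plus strand) had a median log2 fold change of -0.84, and 13 of them, 32.5%, were called lower (background 8.81%). Its neighbour *Calm2* had a log2 fold change of -0.31 (edgeR adjusted p = 0.0222). With the median of its neighbours taken off, *Epcam* was at -1.01. The 40 neighbours spanned 9.86 Mb for *Epcam*, and from 0.591 Mb (*Cldn7*) to 12.7 Mb (*Cdh2*) for the other genes. The neighbour medians are therefore not equally local. The other 9 adhesion genes had neighbour medians between -0.38 (*Cldn7*) and 0.33 (*Cldn3* and *Cldn4*). *Cldn4* (chromosome 5, 134945119 to 134946934, minus strand) and *Cldn3* (134986214 to 134987472, plus strand) lie 39.3 kb apart, and with the neighbour median taken off they were at -1.32 and -2.59. The gene on the right of *Cldn3*, *Gm43372*, had a log2 fold change of 0.19 (edgeR adjusted p = 0.690). *Ocln* (chromosome 13, 100496507 to 100552718, minus strand) lies beside *Marveld2*, described above, and its other neighbour *Gtf2h2* had a log2 fold change of -0.08 (edgeR adjusted p = 0.501). *Cldn7* (chromosome 11, 69964779 to 69967885, plus strand) lies between *Slc2a4* (0.27) and *Elp5* (-0.02), neither of which passed the test. *Cldn6* (chromosome 17, 23679249 to 23682446, plus strand) has *Tnfrsf12a*, a TNF receptor family gene, on its left, which had a log2 fold change of -2.57 (edgeR adjusted p = 0.000270), and its neighbour median was 0.03. *Cdh2* (chromosome 18, minus strand) and *Tjp1* (chromosome 7, 65296165 to 65527781, minus strand) had neighbour medians of 0.04 and -0.09. The part of copy number in these values was not tested.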

How the data were processed

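Bulk RNA of 2 PD100 and 2 PD800 libraries was used, grouped by the sample titles. Paired-end reads were mapped by the authors with STAR 2.5.3a (mm10), and they deposited, for each gene, the RSEM 1.3.0 expected count, which is not scaled for depth, TPM, which is scaled for length and to a fixed total, and FPKM, which was not used; the annotation release is not given in the sources used here. The totals of expected counts lay between 32454120 and 38492150, and floors of 3 counts cover counting error only.

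Expected counts were rounded and tested with edgeR 4.0.16 (R 4.3.3) after filterByExpr at 10 counts and TMM scaling, by the quasi-likelihood F test, and p-values were adjusted over all 19148 tested genes by Benjamini-Hochberg. The study's thresholds, an adjusted p under 0.01 and over 2-fold, were used. Standard errors are the log2 fold change over the root of the F statistic. The procedure was tested on simulated data. Coordinates come from GENCODE M21 (GRCm38), which held 53274 of the 53379 identifiers. Neighbours were ranked by gene midpoint.

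The adhesion genes and the lists were chosen with earlier results of these data known. Named genes are the 10 adhesion genes, up to 4 called genes per list with a mean of at least 1 CPM and the largest change, a fixed set of partners, and the nearest genes on either side of called members. Values of 3 genes that this rule names are not reported here. The alternatives were DESeq2 1.42.0, limma 3.58.1 on TPM, other scalings, filters and thresholds, the replicate number as a block and each library left out.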

Additional observations from a re-analysis of the deposited data

How the results depend on the processing

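The 5 calls among the 10 adhesion genes held under DESeq2, DESeq2's size factors, upper-quartile normalisation, both other filters, limma on TPM, each library left out and a fold change over 2 tested in the model, and none of the 10 was called higher under any of these. At an adjusted p under 0.05 with any fold, 8 of the 10 were lower, with 4224 higher and 4515 lower genes overall. *Cldn4* crossed the 2-fold threshold by limma on log2(TPM + 1) and log2(TPM + 0.1), at -1.18 and -1.22, and lay between -1.07 and -0.92 with each library left out. *Cdh3* turned to -0.0042 on both TPM scales (-0.00421 and -0.00424), with all genes at medians of -0.12 and -0.21. Limma on log2(TPM + 1) called 297 genes higher and 920 lower (24.4% higher, against 41.6% of calls by edgeR on counts), on log2(TPM + 0.1) 533 higher and 1779 lower (23.1%), and the tested fold change called 386 and 685, against 1202 and 1686. When a library was left out, the lone library of its group was assumed to vary like the other group, and 880 to 1514 genes were higher and 1274 to 1893 lower, with 5 to 6 adhesion genes lower. Same-numbered libraries share only a number in the labels and deviated together at a correlation of 0.349 across genes. A fit with a replicate block called 1461 genes up and 1956 down, 2884 calls were shared with the fit without it, and the same 5 adhesion genes were called lower, with 4 of the other claudins in place of 2, and *Cdh2* passed an adjusted p of 0.01 (0.00287). A fit on protein-coding nuclear genes only, chosen after seeing the data, called 1076 higher and 1669 lower and changed no call among the 10. Among the partner and regulator genes, *Marveld2*, *Ovol1* and *Snai1* also lost their calls by limma on log2(TPM + 1), and *Grhl3* passed 2-fold by upper-quartile normalisation, on protein-coding genes and without PD100 replicate 1 or PD800 replicate 2. *Cdh9* and *Mpp5*, named after their values were seen, passed only without PD100 replicate 1, and *Cldn9* was called lower under both other filters, with the block, without PD100 replicate 2 and on protein-coding genes. *Cldn3* rests on 28 to 148 counts a library and *Cldn7* on 48 to 710.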
